A study of Mus musculus with 4 samples.

Results

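The methylated DNA captured from Th1 cells was set against that captured from naive CD4+ T cells over all 10000 regions of one deposited table, taking the values of these 2 of the study's 4 libraries. Female Balb/c mice gave the spleens and lymph nodes for both populations, whose CD4+ cells had been stimulated for 3 h with the phorbol ester PMA (10 ng/ml) and the calcium ionophore ionomycin (500 ng/ml). Naive cells were sorted as CD3+CD4+ with high CD45RB. Th1 cells were sorted as CD3+CD4+ with low CD45RB, secreting interferon gamma and no IL-17A. The labels do not say how many mice gave the cells, and there is 1 library a side, so no difference has a replicate check. The third population with reads, regulatory T cells (Treg), is used for context, and the Th17 library, listed at 0 in the whole table, is left out.

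Methyl groups on the cytosine of CpG dinucleotides are read by proteins with a methyl-CpG-binding domain, and the capture used here pulls down DNA fragments with such a domain, so that read numbers follow both methylation and CpG density. When a naive CD4+ T cell becomes a Th1 cell, which makes interferon gamma against intracellular microbes, methylation is lost at some regulatory regions of effector genes and is gained at some regions of genes of other fates. Captured DNA says nothing of the level of a gene's RNA, so cell identity could not be checked here against markers.

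Each region is a stretch of 93 to 790 bp (median 249 bp) of mouse genome build mm9, assigned in the table to a promoter, exon or intron of 1 of 5349 gene names. The deposited value is a scaled read number: 1 read was worth 1.68 in the Th1 library and 0.996 in the naive library, so a region read equally often in both has a Th1 value 1.69 times the naive value. The Th1 library held 19548 reads in these regions (median 2 a region, highest 9) and the naive library 34277 (median 3, highest 18). Both libraries had reads in 8612 regions, naive alone in 1227, Th1 alone in 159 and neither in 2. All intervals below are exact at 95% unless another kind is named, and cover the counting of reads only.

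Near gene starts, where methylation is most studied, 53 regions were centred between 250 bp before and 50 bp after the start. They held 87 Th1 and 196 naive reads, a log2 ratio of summed values (Th1 over naive) of -0.42 (-0.80 to -0.05), the lowest of 6 groups by distance to the start. At equal table totals it was -0.36 and its interval included 0 (-0.74 to 0.01). The sequences before the start of 3 of these genes are shown so that their CpG content can be read beside regions that leaned to Th1 (Gpx7) or to naive (the others). They were picked after their values were seen. Each is the 250 bases before the RefSeq start, 5′ to 3′ on the gene's strand, in build GRCm38.p6 of the C57BL/6J strain, not the Balb/c of these mice, with CG in capitals. The Gpx7 window is chr4:108406714-108406963 on the minus strand, that of C130026I21Rik chr1:85270567-85270816 on the minus strand, and that of Tctex1d1 chr4:102978453-102978702 on the plus strand.
Gpx7: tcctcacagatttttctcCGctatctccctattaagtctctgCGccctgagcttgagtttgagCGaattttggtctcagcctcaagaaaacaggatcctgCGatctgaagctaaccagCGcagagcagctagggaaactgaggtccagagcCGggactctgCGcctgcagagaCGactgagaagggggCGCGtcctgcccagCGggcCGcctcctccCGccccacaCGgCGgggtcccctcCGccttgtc
C130026I21Rik: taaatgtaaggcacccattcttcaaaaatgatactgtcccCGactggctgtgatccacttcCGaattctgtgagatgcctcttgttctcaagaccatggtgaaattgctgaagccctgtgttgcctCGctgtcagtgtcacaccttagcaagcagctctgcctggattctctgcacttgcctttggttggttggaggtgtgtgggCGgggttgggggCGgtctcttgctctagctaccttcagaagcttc
Tctex1d1: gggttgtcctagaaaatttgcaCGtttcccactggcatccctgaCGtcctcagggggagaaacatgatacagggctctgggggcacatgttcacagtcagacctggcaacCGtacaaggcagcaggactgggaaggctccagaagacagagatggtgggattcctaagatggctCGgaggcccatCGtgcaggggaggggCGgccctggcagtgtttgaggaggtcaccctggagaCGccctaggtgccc
Gpx7, a glutathione peroxidase of the endoplasmic reticulum, has 16 CG in its window, and its region (mm9 chromosome 4, 108079554 to 108079871) held 3 Th1 reads and 1 naive read, a ratio of 5.06 (0.406 to 266). C130026I21Rik has 5 CG, and its region (chromosome 1, 85267151 to 85267507) held 0 Th1 and 10 naive reads. Naive was 1.98-fold higher with Th1 put at a floor of 3 reads, and the interval of the ratio was 0 to 0.753. Tctex1d1, a gene of a dynein light chain family, has 7 CG, and its region (chromosome 4, 102658776 to 102659139) held 0 Th1 and 5 naive reads. Only 13 of the 53 regions could be matched to a RefSeq start, so their windows may not stand for the group. These windows held a median of 5 CG, against 6 over all 32851 windows, of which 92.1% hold at least 1. Of these 13 regions Gpx7 alone leaned 2-fold to Th1 and 7 leaned to naive, against 19.4% and 29.0% of all regions. The 7 had a median of 5 CG. With 1 region on the Th1 side, CG content cannot be compared between the sides. The mappability of C130026I21Rik was not examined. Before and after the start were read from the sign of the deposited distance along the gene's strand. Of 42 checked pairs within 1 Mb, 24 went with this reading and 10 with one that leaves out the strand, so the placement is uncertain.

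Over the whole table the 2 libraries carried nearly the same summed signal. The Th1 to naive ratio of the sums was 0.962, a log2 ratio of -0.06 (-0.08 to -0.03), and it is 0 by construction when both are brought to equal table totals, at which a Th1 read is worth 1.75 naive reads. By a 2-fold rule (log2 ratio with 0.5 added to both values at least 1 in size), 1935 regions, 19.4%, leaned to Th1 and 2899, 29.0%, leaned to naive, and 5166 lay between. Of the naive-leaning regions 1227 had no Th1 read, and of the Th1-leaning ones 159 had no naive read. At equal table totals the counts were 1969 (19.7%) and 2129 (21.3%), and Th1 took 48.0% of the calls in place of 40.0%. The naive count moved because 769 regions with 1 Th1 and 4 naive reads sit at the threshold, with a log2 ratio of -1.04 at the deposited scaling and -0.997, just short of the rule, at equal totals.

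**Figure D1:**
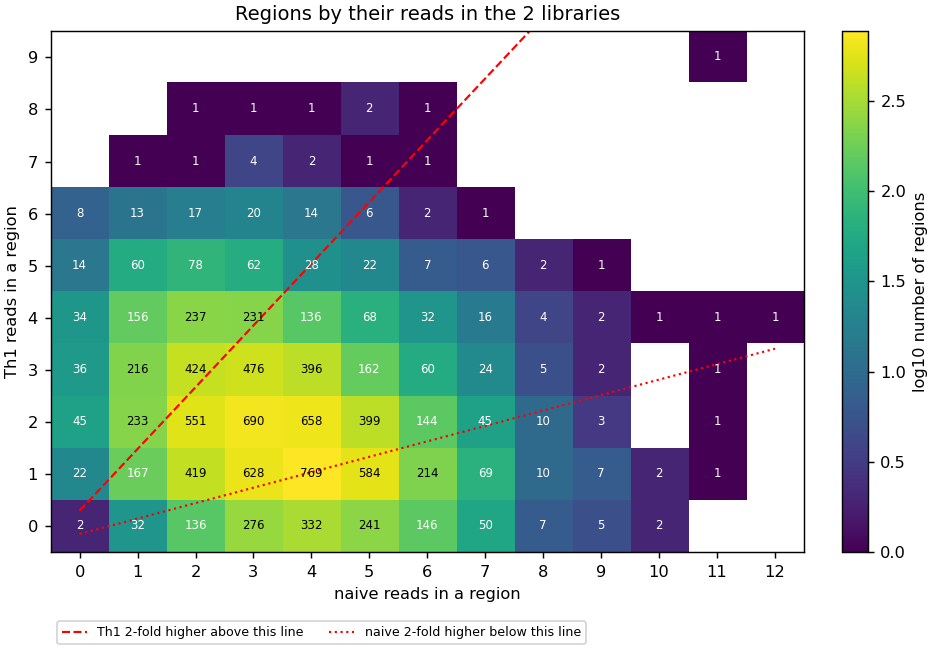
Number of regions (figure in each cell, log10 colour scale) at each pair of naive reads (x axis, 0 to 12) and Th1 reads (y axis) in a region. Regions above the dashed line were 2-fold higher in Th1 and regions below the dotted line 2-fold higher in naive; 769 regions sit at 1 Th1 and 4 naive reads, and the 1 region with 18 naive reads is off the axis.

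Single regions hold few reads, and few stood clear of counting error. The interval of the ratio excluded 1 in 73 regions on the Th1 side (0.730%) and 15 on the naive side (0.150%), and in 73 and 7 at equal table totals. The sides are not equally open: a region without a naive read needed 4 Th1 reads for this, and one without a Th1 read needed 8 naive reads. A 2-sided exact binomial test of the 2 libraries' reads with Benjamini-Hochberg adjustment over the table called 0 regions, the smallest p being 0.00265 before adjustment and 1 after it. Without adjustment, 137 regions on the Th1 side and 16 on the naive side fell under 0.05. Across the 10000 regions the Th1 and naive values ran against each other (Spearman's rho -0.27, Pearson's r -0.25), a description of regions that share libraries and the choice of the table.

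Of the 12 regions leaning most to Th1, 1 a gene, 11 were introns. Introns of 8 genes held 6 Th1 reads and no naive read each, a Th1 value of 10.1 (3.70 to 22.0) against 0 (0 to 3.67). They were Atxn10 (ataxin 10; chromosome 15, 85224114 to 85224377), Fstl4 (a follistatin-like secreted protein), Galntl6 (related to the enzymes that start O-linked sugar chains), Meis1 (a homeobox factor; chromosome 11, 18853813 to 18854105), Ndst3 (a heparan sulfate-modifying enzyme), Nfe2l3 (a bZIP factor), Park2 (the ubiquitin ligase parkin; chromosome 17, 11791965 to 11792281) and Ppp2r2b (a regulatory subunit of protein phosphatase 2A). In each of these 8 introns Th1 was 3.37-fold higher with naive put at the floor of 3 reads, and the ratio's interval began at 1.99. Park2 as a whole did not lean this way: its 26 regions held 50 Th1 and 94 naive reads, 4 leaning 2-fold to Th1 and 9 to naive. The Treg library read all 8 of these introns, as it did the other regions named by this ranking, with 5 to 12 reads. Introns of Bmp7 (a bone morphogenetic protein), Dnajc5b (a co-chaperone) and Frs2 (a fibroblast growth factor receptor adaptor) held 5 Th1 and 0 naive reads. In each, Th1 was 2.81-fold higher with naive put at the floor, and the ratio's interval began at 1.55.

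Among promoters and exons the Th1 side of the same ranking held fewer reads. The promoter of Chmp1a, a subunit of the membrane-cutting ESCRT-III complex (chromosome 8, 125738455 to 125738719), held 6 Th1 reads and 1 naive read, a ratio of 10.1 (1.23 to 466). The Sgsm1 promoter, of a regulator of small G proteins, held 4 and 0. Exon 11 of Polr2b, a core subunit of RNA polymerase II (chromosome 5, 77760017 to 77760318), and exon 5 of Gm6939 held 5 and 0 each, and exon 5 of Ankrd11, a chromatin regulator, held 4 and 0. These regions were picked for their size, so their ratios describe them and are no evidence of a difference between the cell types.

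On the naive side the leading regions held 8 to 18 naive reads against 0 to 3. An intron of 4933440M02Rik (chromosome 7, 132481702 to 132481973) held 10 naive reads, a value of 9.96 (4.78 to 18.3), and no Th1 read, the same counts as the C130026I21Rik promoter printed above. Introns of App (the amyloid precursor protein; chromosome 16, 85081232 to 85081506), Arhgap24 (an inhibitor of the small G protein Rac), Gng2 (a G protein gamma subunit), B930007M17Rik and Gm11963 held 9 and 0. With Th1 put at the floor, naive was 1.78-fold higher in these introns, and the interval of the ratio was 0 to 0.855. Those of Asah2 (neutral ceramidase), Cdc42bpa (a kinase acting on the cytoskeleton), Dmd (dystrophin) and BC061237 held 8 and 0. Naive was 1.58-fold higher in them by the floor, and the interval of the ratio was 0 to 0.989. The SNORD116 promoter, of a small nucleolar RNA in an imprinted tandem array (chromosome 7, 67004473 to 67004652), held 18 naive and 3 Th1 reads, a ratio of 0.281 (0.0531 to 0.963), and because the array holds near-identical copies its reads are uncertain in origin. Its other 2 regions held 6 naive and 2 Th1 reads and 3 of each. The App region held 1 Treg read, the fewest among these.

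Exons gave smaller counts on this side. Exon 4 of Abi3bp (an extracellular matrix protein), exon 9 of Chl1 and exon 5 of Nrxn2 (both neuronal adhesion molecules) held 7 naive reads and no Th1 read, and their intervals reached past 1, to 1.17. The Heatr7b1 promoter held 11 naive reads and 1 Th1 read, a ratio of 0.153 (0.00356 to 1.06).

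The balance of the 2 libraries differed more between short and long regions than between location classes. The regions were put in 5 groups of about equal number by length. In the shortest group (93 to 203 bp) the log2 ratio was -0.63 (-0.69 to -0.56), from 3047 Th1 and 7930 naive reads. It was -0.28, 0.04 and 0.21 in the next 3 groups and 0.32 (0.26 to 0.37) in the longest, a difference between the ends of 0.94 (normal 95% interval 0.86 to 1.02). Mean Th1 values climbed from 2.52 in the shortest group to 4.04 in the longest, and mean naive values went from 3.89 to 3.24. In the shortest group 7.67% of regions leaned 2-fold to Th1 and 43.3% to naive, and in the longest 27.5% and 18.1%.

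The same order held within each location class. Between the shortest and the longest group the log2 ratio moved from -0.82 to 0.14 in promoters, from -0.45 to 0.43 in exons and from -0.65 to 0.30 in introns. Against the Treg values of the same regions, Th1 went from 1.14 to 1.31 and naive from 1.76 to 1.05. Relative to Treg the naive library thus moved more. Mean Treg values themselves rose, from 2.21 in the shortest group to 3.08 in the longest, so this order rests on Treg as the base. Of the 73 regions clear of counting error on the Th1 side, 0 were in the shortest group and 29 in the longest, and of the 15 on the naive side, 2 and 1. Values below called length-standardised are what remains after the ratio of each length group is taken as the baseline. Whether library fragment size or the way regions were drawn has a part in the length relation was not tested.

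**Figure D2:**
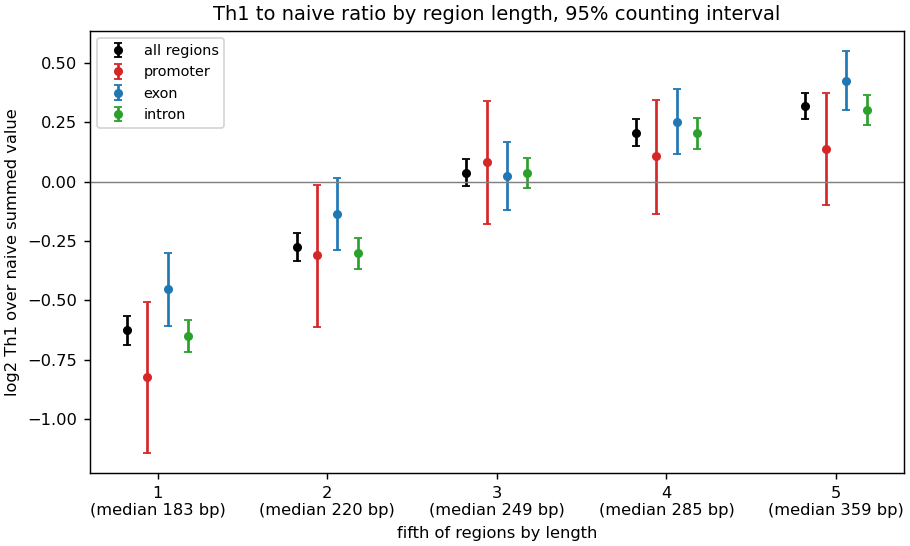
Log2 ratio of summed Th1 over naive values (y axis) in 5 groups of regions by length (x axis, median length under each), for all regions and by location class, with 95% counting intervals. Over all regions the ratio goes from -0.63 in the shortest group to 0.32 in the longest.

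Exons held relatively more Th1 signal than introns. The 1658 exonic regions had a log2 ratio of 0.06 (-0.00 to 0.12), the 7865 intronic ones -0.08 (-0.11 to -0.05) and the 477 promoter ones -0.10 (-0.22 to 0.01). At equal table totals they were at 0.12 (0.05 to 0.18), -0.02 (-0.05 to 0.01) and -0.05 (-0.16 to 0.07), so that exons stood clear of 0 in place of introns. Exons lay above introns by 0.14 (0.07 to 0.21, normal interval) and above promoters by 0.16 (0.03 to 0.29), while promoters and introns differed by -0.03 (-0.14 to 0.09). Length-standardised, the exon to intron difference was 0.10 (0.03 to 0.17). This takes account of the length of the regions and not of the gene. These differences between classes do not depend on how the libraries are scaled.

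Within exons, the second exon stood highest of 6 groups by exon number. Its 216 regions, of 216 genes, held 480 Th1 and 674 naive reads, a log2 ratio of 0.27 (0.09 to 0.44). Of these regions 26.4% leaned 2-fold to Th1 and 20.4% to naive, against 19.4% and 29.0% in the table. The second exon lay above the other exons by 0.24 (0.05 to 0.42). It was picked from the 6 groups after its value was seen, and no adjustment was made for that. Fabp5, a fatty acid-binding protein gene, had one of the most read second exons, with 8 Th1 and 3 naive reads (chromosome 3, 10014670 to 10015118). First exons were at -0.16 (-0.42 to 0.10), on 104 regions.

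In promoters, 5 groups by distance other than the one around the start had intervals that included 0, with log2 ratios from -0.15 to 0.01. The group around the start lay below the other promoter regions by -0.35 (-0.73 to 0.03), an interval that includes 0. Of its 53 regions 39.6% leaned 2-fold to naive and 18.9% to Th1, against 29.0% and 19.4% in the table.

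**Figure D3:**
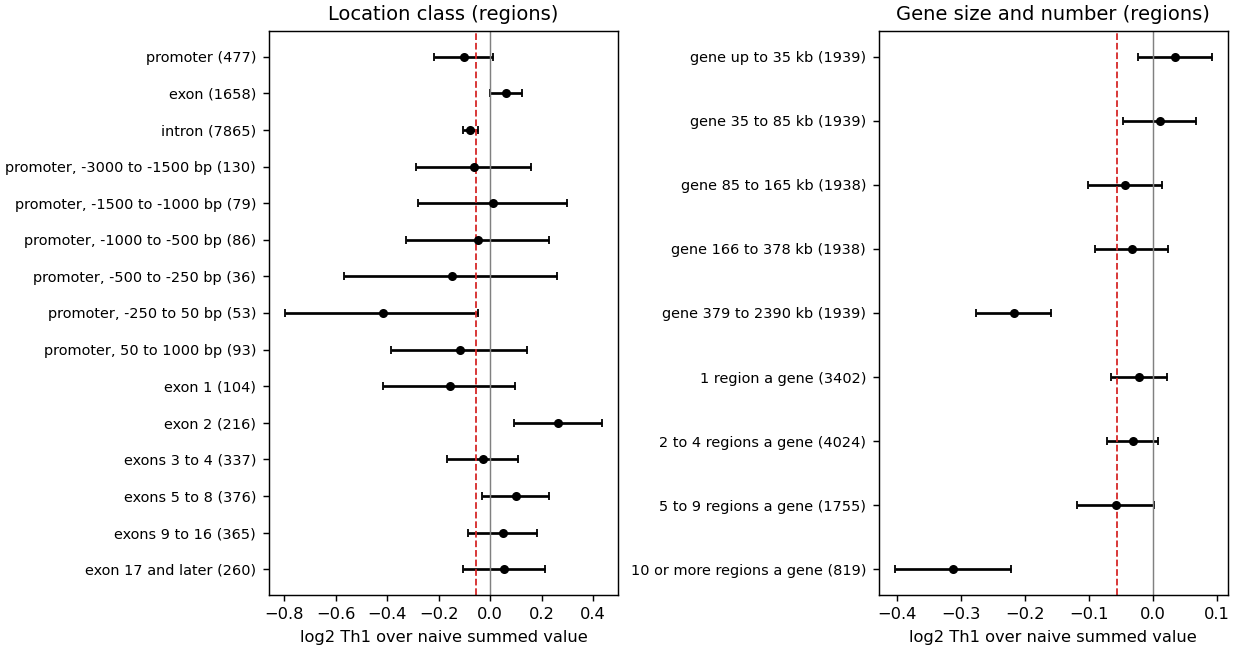
Log2 ratio of summed Th1 over naive values (x axis) with 95% counting intervals, by location class, distance to the gene start and exon number (left) and by length of the gene and its number of regions (right), with the number of regions in parentheses and the whole table as a dashed line. Exon 2 lies at 0.27, the promoter group around the start at -0.42 and genes with 10 or more regions at -0.31.

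Very long genes leaned to naive. Gene lengths from RefSeq (GRCm38.p6) could be joined for 96.4% of gene names. With regions put in 5 groups by gene length, in the first 4 the log2 ratio lay between -0.04 and 0.04, and in the last, genes of 379 to 2390 kb, it was -0.22 (-0.28 to -0.16), below the shortest genes by -0.25 (-0.34 to -0.17). Length-standardised on the regions, that difference was -0.22 (-0.30 to -0.14), and within introns alone it was -0.21 (-0.31 to -0.10). In the shortest genes exons (693 regions) were at 0.13 and introns (980) at -0.01. In the longest genes exons (85 regions) were at -0.21 and introns (1844) at -0.22. The part of gene length in the exon to intron difference was not tested.

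The lean was spread over many of these genes. The 59 genes with 10 or more regions had 819 regions and a log2 ratio of -0.31 (-0.40 to -0.22), against -0.02 (-0.06 to 0.02) for genes with 1 region. Of the 59, 52 had the higher sum in naive, 88.1%, against 54.0% of all 1947 genes with 2 or more regions, and at equal table totals 49 of 59, 83.1%, against 49.3%. Cdh4, a cadherin gene, had 20 regions with 31 Th1 and 82 naive reads, a ratio whose interval was 0.408 to 0.975, with 1 region leaning 2-fold to Th1 and 9 to naive. Csmd1, a complement regulator of neurons, had 14 and 43 over 10 regions. Fgfr2, a fibroblast growth factor receptor gene with the most regions (39), held 68 and 119 and was nearly even (0.705 to 1.31), as was Auts2 with 40 and 67 over 21. The 39 regions under the name Fgfr2 span 2886 kb, far more than that gene covers, so the label does not place each region inside it. The 27 regions under AC114005.5, which span 3829 kb, held 39 and 106 (0.419 to 0.904).

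Summing the regions of a gene gives more reads. There were 1947 genes with 2 or more regions. The interval excluded 1 in 35 of them on the Th1 side (1.80%) and in 33 on the naive side (1.69%). At equal table totals the counts were 36 and 29. Both shares lie within what intervals of this kind allow for counting error alone. The genes named next were picked for how far their intervals lay from 1. Their ratios therefore describe them and are no evidence of a difference between the cell types.

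Plcl2, a phospholipase C-like protein without catalytic activity, led the Th1 side. Its 2 introns (chromosome 17, 50723783 to 50823539) held 6 and 5 Th1 reads and 1 naive read each, a ratio of 9.28 (2.03 to 86.2). Utrn, which encodes utrophin, the relative of dystrophin that links actin to the membrane, leaned 2-fold to Th1 in 4 of 4 introns. They held 3, 4, 4 and 5 Th1 reads and 2 naive reads each, a ratio of 3.37 (1.36 to 9.11). Of all regions 19.4% leaned 2-fold to Th1. Add1, the membrane skeleton protein alpha-adducin, held 10 Th1 and 3 naive reads in 2 introns, a ratio of 5.62 (1.45 to 31.8). Atp11a, a lipid flippase, held 12 and 5 in 3 introns. Fbxw11 (a ubiquitin ligase subunit), Mtmr3 (a phosphoinositide phosphatase), Tmem135 and Ppp2r2b each held 8 and 2 over 2 introns, a ratio of 6.75 (1.35 to 65.2). In Ppp2r2b 1 intron carried the lean, and its other one held 2 reads in each library.

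Phactr2, a regulator of protein phosphatase 1 and actin, leaned 2-fold to naive in 5 of 5 regions, against 29.0% of all regions. Its 4 introns and its promoter region at -1722 bp from the start (chromosome 10, 12949856 to 13196018) held 3 to 10 naive reads and 0 or 1 Th1 read each, 29 against 3 in all, a ratio of 0.175 (0.0340 to 0.563). In Phactr2 1 intron held 1 Th1 and 4 naive reads, the pair at the threshold, so it is not counted at equal table totals. Ccdc46, a centrosome protein gene, leaned 2-fold to naive in 3 of 4 regions and held 22 naive and 2 Th1 reads (0.0175 to 0.624). Both regions of 4933440M02Rik were without a Th1 read and held 13 naive reads, 2.57-fold higher with Th1 put at the floor (interval of the ratio 0 to 0.554). Crmp1, a cytoskeletal protein of growing axons, had 11 and 0, 2.17-fold by the floor (0 to 0.672). Cep120 (centriole assembly), Ddah1 (breakdown of methylated arginines), Emcn (an endothelial sialomucin) and Nrg4 (an ErbB ligand) had 10 and 0 each. Median region lengths were 184 to 269 bp in these 8 genes and 238 to 379 bp in the 8 on the Th1 side, in the direction of the length relation above, and its part in them was not tested.

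**Figure D4:**
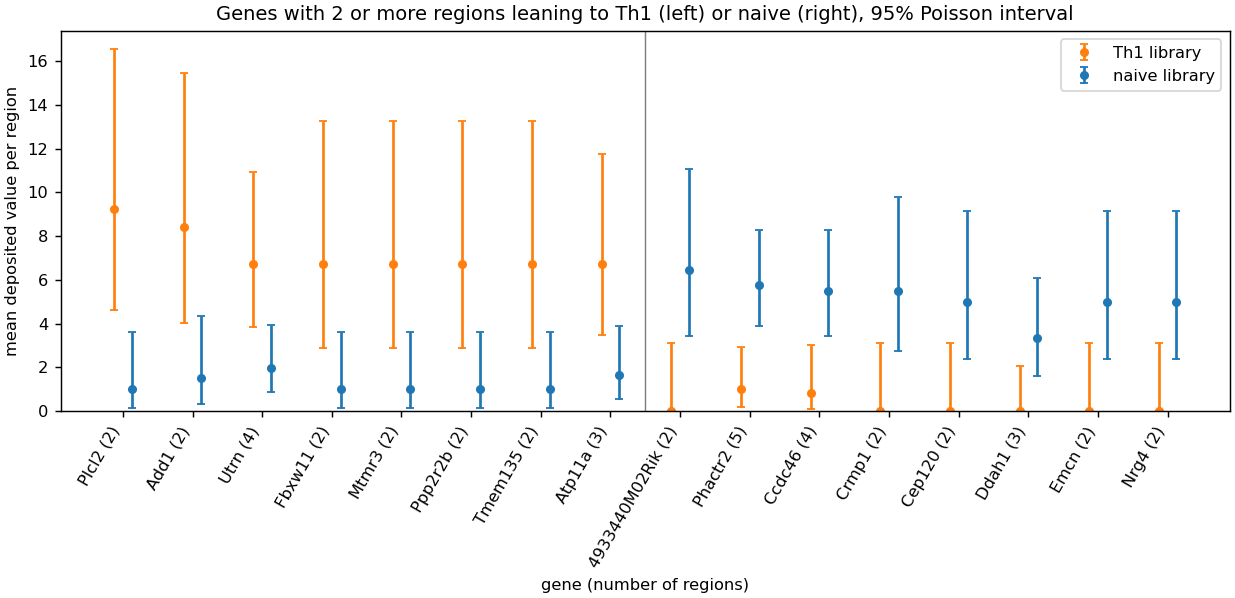
Mean deposited value per region (y axis, in scaled reads) in the Th1 and naive libraries for the 8 genes on each side whose summed reads stood farthest from an equal ratio, with 95% Poisson intervals and the number of regions in parentheses. Th1 means are 6.72 to 9.24 in the 8 genes on the left, and naive means 3.32 to 6.47 in the 8 on the right.

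The genes of the Th1 programme itself were thinly covered. Of 30 Th1 lineage genes 5 had a region, with 6 regions, 12 Th1 and 23 naive reads and a log2 ratio of -0.18 (-1.32 to 0.88). None of the 6 leaned 2-fold to Th1 and 2 leaned to naive, against 19.4% and 29.0% of all regions. The 2 were introns of Il18r1, a subunit of the interleukin 18 receptor (chromosome 1, 40524954 to 40525194), and of Runx3, a factor that acts with T-bet on the interferon gamma gene (chromosome 4, 134699351 to 134699704). Each held 1 Th1 and 4 naive reads, the pair at the threshold, so at equal table totals neither is counted. Stat4, the factor that carries the interleukin 12 signal, held 5 and 6 in an intron of 404 bp. Il27ra, an interleukin 27 receptor subunit, held 2 of each in exon 8 and 1 and 3 in an intron, and Txk, a Tec family kinase, held 2 and 4. These values leave ratios from well below 1 to above it.

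Cytotoxic effector genes had regions in 3 of 20 cases. Gzmk, a granzyme gene, held no Th1 read in 2 introns (chromosome 13, 113973431 to 113978694) and 5 and 3 naive reads, the 2 regions of this list that leaned to naive. Gzmb, granzyme B, held 2 Th1 and 5 naive reads in exon 4. Zeb2, a transcriptional repressor that acts in terminal effector cells, held 2 Th1 reads in each of 4 introns against 2, 4, 4 and 4 naive reads. The list's 10 Th1 and 27 naive reads gave a log2 ratio of -0.68 (-1.89 to 0.41). Of its 7 regions 0 leaned to Th1 and 2 to naive (0% and 28.6%, against 19.4% and 29.0% in the table).

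Genes of the naive T cell state were near even. Of 30 genes 8 had a region, and 12 regions held 26 Th1 and 39 naive reads, a log2 ratio of 0.17 (-0.60 to 0.92), with 2 regions leaning to Th1 and 1 to naive (16.7% and 8.33%, against 19.4% and 29.0% in the table). Foxp1, which keeps T cells quiescent, held 2 Th1 reads and no naive read in an intron. Pdk1, a kinase that inhibits pyruvate dehydrogenase, held 1 and 4 in exon 11. Igf1r, a growth factor receptor, held 13 and 18 over 5 introns. Actn1 (alpha-actinin) had 3 and 6, Foxo1 (a factor of naive cell homing and survival) 2 and 4 in exon 3, Bach2 (a repressor of effector genes) 1 of each and Tgfbr2 (a TGF-beta receptor) 2 of each.

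Effector and memory genes had 3 regions leaning each way among 8, 37.5% a side against 19.4% and 29.0% in the table. Their log2 ratio was 0.20 (-0.85 to 1.21), and -0.33 without Runx2, the gene with the most reads. S100a11 and S100a4, calcium-binding proteins of memory cells, held 4 Th1 and 1 naive and 2 Th1 and 1 naive reads. Cd44, the adhesion receptor that marks memory cells, held 0 and 5 in an intron (chromosome 2, 102658056 to 102658280). Prdm1, the gene of the repressor Blimp-1, held 1 and 6 in one intron and 0 and 2 in another. Runx2, a factor of the same family as Runx3, held 4 and 2 and 3 of each in its introns.

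T cell receptor signalling genes stood highest among the lists. Their 5 regions, in 5 of 32 genes, held 23 Th1 and 10 naive reads, a mean value of 7.73 against 1.99 and a log2 ratio of 1.96 (0.83 to 3.19). The median of the regions was 2.27, against -0.19 over the table, and the length-standardised ratio was 1.80. Introns of Lcp2, the adaptor SLP-76 (chromosome 11, 33972571 to 33972848; 6 Th1 reads and 1 naive read), and Fyn, a Src family kinase (4 and 1), and exon 5 of the inhibitory receptor gene Cd5 (5 and 1) held most of the lean. An intron of Plcg1, the phospholipase downstream of the receptor, held 4 and 3, and one of Cd28, the costimulatory receptor, 4 and 4, a Th1-higher value only because a Th1 read counts for more. This high ratio was known when the list was drawn up, and the list leaves out Runx1, which an earlier list of these genes held and which had 1 Th1 and 5 naive reads. With Runx1 the 6 regions held 24 and 15, a log2 ratio of 1.43. The list is therefore no independent support for a difference.

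Regions of genes of other helper fates held more naive signal, without standing clear of counting error, at either scaling. Of 36 genes of the Th2, Th17, Treg and Tfh programmes 17 had a region, and 32 regions held 59 Th1 and 133 naive reads, a log2 ratio of -0.42 (-0.89 to 0.03), with 2 leaning to Th1 and 12 to naive (6.25% and 37.5%, against 19.4% and 29.0% in the table). At equal table totals 9 leaned to naive, as 3 regions, of Plcd1 and Rora, sit at 1 Th1 and 4 naive reads. Rora, a nuclear receptor of Th17 cells, gave 14 of the 32 regions. Nrp1, a receptor on thymus-derived Treg cells, held 0 Th1 and 5 naive reads. Tox2, a factor of follicular helper cells, held 1 and 6. The exception with the most Th1 reads beside Rora was the promoter of Pou2af1, a coactivator used in B and follicular helper cells, with 6 and 2 (chromosome 9, 51019757 to 51019994). Il17a had 3 and 4 in the region of its promoter and first exon and 2 and 5 in exon 2. Acsbg1, an acyl-CoA synthetase, had 4 and 9 over 2 exons and Ltb4r1, a leukotriene receptor, 3 and 5.

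Transcription factors of the RUNX, ETS, GATA and T-box families gave 23 regions in 15 of 32 genes, 4 leaning to Th1 and 8 to naive, 17.4% and 34.8%, near the shares of 19.4% and 29.0% in the table (log2 ratio -0.20, -0.74 to 0.32). Zfpm1, a GATA cofactor, held 7 and 3 in an intron, and Tbx18 4 and 1. Zfpm2, a relative of Zfpm1, held 6 and 16 over 4 introns, and the T-box genes Tbx15 and Tbx5 held 3 and 11 and 5 and 7. Erg, an ETS factor, held 0 and 6 in exon 7 and 4 and 5 in an intron, and Runx1 was the 1 and 5 given above. Activation genes of the NFAT and NF-kappaB pathways gave 12 regions in 7 of 32 genes (0.33, -0.46 to 1.10), with Nfatc2 at 4 and 2 and the costimulatory receptor gene Tnfrsf9 at 2 and 5. Nfkb1, an NF-kappaB subunit, had 4 and 3, and the 5 regions labelled Ccl1, a chemokine gene, 10 and 17. Cytokine receptor and JAK-STAT genes gave 10 regions in 6 of 32 (-0.09, -0.96 to 0.73). The interleukin 1 receptor subunits Il1r1 and Il1rap had 7 and 13 and 4 and 7. Il10rb, of the interleukin 10 receptor, had 3 and 5, and Il1rl1, the interleukin 33 receptor, 2 and 4.

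Metabolic genes were close to the table as a whole. Of 32 genes 11 had a region, and 5 of 25 regions leaned to Th1 and 9 to naive, 20% and 36% against 19.4% and 29.0% (log2 ratio -0.20, -0.74 to 0.32). Slc2a3, a glucose transporter of lymphocytes, held 6 and 4 in 2 introns. Rptor, the scaffold of the growth kinase complex mTORC1, had 11 and 22 over 6 regions, and Tsc1, which restrains that complex, 3 and 9 over 2. Acacb, an acetyl-CoA carboxylase, had 8 and 11 and Prkag2, a subunit of the energy sensor AMPK, 5 and 13, each over 4. Hk1, the first enzyme of glucose use, held 1 Th1 and 9 naive reads in an intron (chromosome 10, 61827001 to 61827261), and Ppargc1a, a coactivator of mitochondrial genes, 0 and 6 in exon 8. Genes of DNA methylation and chromatin gave 15 regions in 11 of 34, with a log2 ratio of 0.26 (-0.44 to 0.95). Dnmt1, the maintenance methyltransferase, held 3 and 2, and Dnmt3a, a de novo methyltransferase, 3 and 5 over 2 regions. The histone deacetylases Hdac9 and Hdac4 had 4 and 12 and 4 and 5, and Mbd5, of the methyl-CpG-binding domain family, 4 of each. Adhesion and migration genes gave 23 regions in 9 of 30 (-0.23, -0.81 to 0.34), among them Itga6, a laminin-binding integrin subunit, with 4 and 12 over 3 regions. The collagen-binding subunits Itga1 and Itga2 had 3 and 12 and 6 and 9, and Dock2, an activator of Rac in migrating lymphocytes, 12 and 10 over 4 regions.

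**Figure D5:**
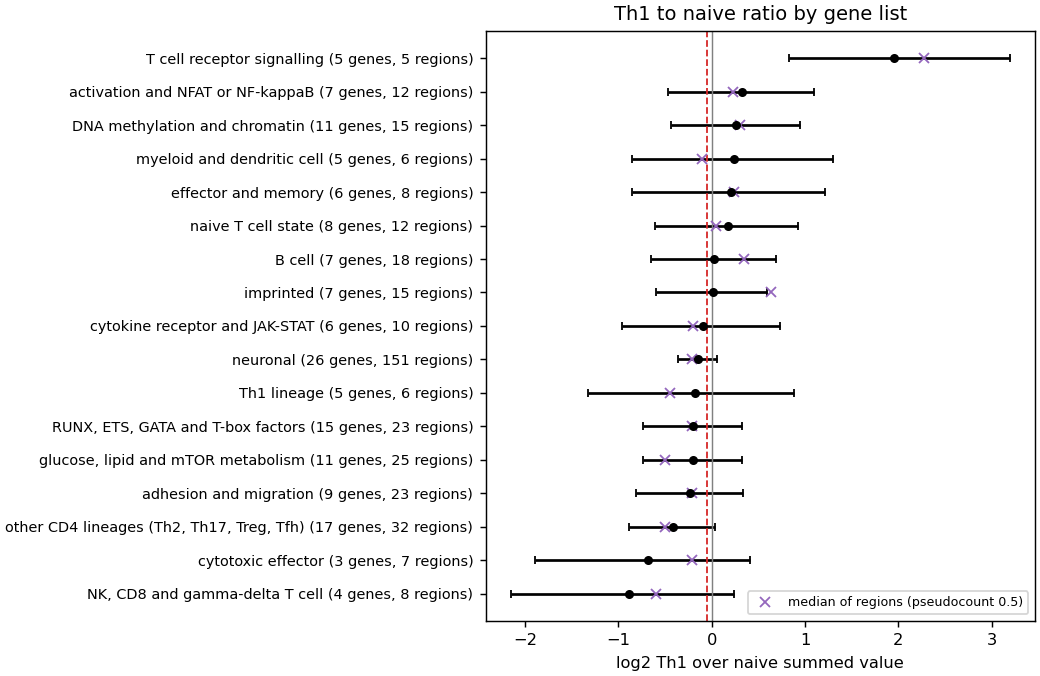
Log2 ratio of summed Th1 over naive values (x axis) for 17 gene lists with a region, with 95% counting intervals (points), the median over regions (crosses) and the whole table (dashed line), with genes and regions in parentheses. T cell receptor signalling lies at 1.96, 6 lists lie between 0 and 0.33 besides the imprinted one at 0.01, and NK, CD8 and gamma-delta T cell genes lie lowest at -0.88.

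Genes that mark other cells were also read in both libraries. B cell genes gave 18 regions in 7 of 16 cases, with a mean value of 2.99 in Th1 and 2.93 in naive. There 6 regions leaned each way, 33.3% a side against 19.4% to Th1 and 29.0% to naive in the table. At equal table totals 6 of these regions leaned to Th1 and 4 to naive. Ebf1, the early B cell factor, had 14 Th1 and 29 naive reads over 8 introns, Blk, a B cell kinase, 3 and 9, the B cell adaptor gene Blnk 6 and 5 and Pax5, the B cell identity factor, 4 and 2. Myeloid and dendritic cell genes gave 6 regions in 5 of 22, at 3.92 and 3.32, where the log2 ratio of the sums (0.24) and the median of the regions (-0.10) differ in sign. Csf3r (a granulocyte growth factor receptor) had 2 and 8, Mpo (myeloperoxidase) 3 and 4, Fcgr1 (an antibody receptor) 3 and 2 and Sfpi1 (the factor PU.1) 5 and 2. NK, CD8 and gamma-delta T cell genes gave 8 regions in 4 of 18, at 1.89 and 3.49 (log2 ratio -0.88, -2.15 to 0.24). Of these 0 leaned to Th1 and 3 to naive, among them both of Gzmk (0% and 37.5%, against 19.4% and 29.0% in the table). Zbtb16, the factor PLZF, had 7 and 10 over 4 regions, Cd244 (an NK receptor) 2 and 5 and Sox13 (a gamma-delta T cell factor) 0 and 5. Erythroid and megakaryocyte genes gave 0 of 13. As captured DNA does not report expression, these values are no measure of other cells in the sorts.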

How the data were processed

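Methylated DNA was captured with a methyl-CpG-binding domain kit and sequenced, 1 library a population. Bowtie 0.12.7, FastQC and the build mm9 are listed in the submitters' processing notes. The sources used here do not say how regions were called, chosen and scaled. The values deposited by the authors are a signal per region and library. Within a relative tolerance of 1e-06, 100% of naive, Th1 and Treg values were whole multiples of 1 constant a library, so reads were recovered by division.

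Ratios were computed from summed reads at the deposited scaling and at equal table totals, with exact conditional binomial intervals (Clopper-Pearson) at 95%. Values have exact Poisson intervals, and differences between classes have normal intervals on the log odds of reads. Folds against 0 reads put the unread side at a floor of 3 reads and take the other count as it stands, so they are not lower bounds. Length standardisation, with 5 length classes, was added after the data were seen. Python 3.11.15, numpy 2.4.6, pandas 2.3.3 and scipy 1.17.1 were used, and the functions were tested on simulated data.

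The comparison, the 18 gene lists and the rules were chosen with earlier results of these data known. Named were, a side, the 12 regions (1 a gene) and the 8 genes with 2 or more regions whose interval lay farthest from 1, the first 3 regions of each location class, the 4 most read members of each list, and every covered member of the Th1 lineage, cytotoxic, naive state and T cell receptor lists. Ties in these rankings of regions and genes were ordered by reads in both libraries and then by gene symbol, so regions with equal counts can go unnamed. Further members, and Gpx7, Tctex1d1, Csmd1 and the other SNORD116 regions, were chosen after their values were seen. A few of the items so named are not reported here. PCR duplicates and mappability could not be examined, so intervals cover counting error only.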

Additional observations from a re-analysis of the deposited data

How the results depend on the processing

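The count of regions leaning 2-fold to Th1 (1935) was 191 with 5 added to both values in place of 0.5, 3157 at a 1.5-fold and 408 at a 4-fold threshold, and 27 among the 192 regions with at least 10 reads. The count leaning to naive (2899) was 221 with 5 added, 1205 at 4-fold and 28 with at least 10 reads. Where the interval had to exclude 1, the counts were 73 and 15, and by the exact test with Benjamini-Hochberg adjustment 0 and 0. With 1 added, at least 5 reads or adjacent regions merged, both counts stayed within 1.5 times. The log2 ratio of the whole table (-0.06) was 0 at equal table totals and -0.00501 with 1 region a gene. That of introns (-0.08) was -0.0217 at equal table totals, -0.0311 with 1 region a gene and -0.0126 length-standardised. Without the gene with the most reads the cytotoxic list moved to -1.95 and the NK, CD8 and gamma-delta T cell list to -2.42. Among lists whose interval included 0, 4 changed sign: effector and memory (0.20) to -0.33 without that gene and -0.13 by the mean of gene ratios, imprinted (0.01) to -0.04 without it, and cytokine receptor (-0.09) to 0.09 and B cell (0.03) to -0.05 length-standardised. No paired analysis was possible because each population has 1 library.

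The depth limits single regions most: with medians of 2 Th1 and 3 naive reads, a 2-fold difference in a typical region cannot be told from counting error. With 1 library a side, a difference between the libraries cannot be told apart from one between the populations, and the ratio of the totals follows the authors' scaling.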

Other observations

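Chromosome 14 leaned most to naive. Its 406 regions held 715 Th1 and 1452 naive reads, a log2 ratio of -0.27 (-0.40 to -0.14), below the rest of the table by -0.22 (-0.35 to -0.09), and chromosome 16 followed at -0.21 (-0.35 to -0.07). Chromosome 9 was at -0.13 (-0.23 to -0.02) and at -0.04 length-standardised. The other 17 chromosomes, X among them at -0.10 (-0.29 to 0.08), had intervals that included 0, as did chromosome 9 at equal table totals. Chromosomes 14 and 16 were picked out of 20 after their values were seen. The App and Gng2 introns named above lie on these chromosomes.

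Imprinted genes, where 1 parental copy is methylated, were even between the libraries in their summed values only. Of 34 genes 7 had a region, and 15 regions held 40 Th1 and 67 naive reads, a log2 ratio of 0.01 (-0.59 to 0.60). At the deposited scaling 5 of the 7 genes had the higher sum in Th1 and 2 in naive, and the median of the regions was 0.63. SNORD116, whose reads are uncertain in origin, held 8 Th1 and 27 naive reads over 3 regions and pulled the sum to naive. Grb10, a growth inhibitor, held 5 Th1 and 1 naive read in one intron and 1 and 4 in another. Kcnq1, a potassium channel gene, held 14 and 22 over 6 introns. Slc22a3, a cation transporter, held 5 of each, and Igf2r, which clears a growth factor, 3 of each in exon 9. Neuronal genes, many of them very long, gave 151 regions in 26 of 28 genes, with 22 leaning to Th1 and 49 to naive (14.6% and 32.5%, against 19.4% and 29.0% in the table) and a log2 ratio of -0.15 (-0.36 to 0.06). Rbfox1, a splicing regulator, had 16 Th1 and 14 naive reads, and Grin2a, a glutamate receptor subunit, 11 and 31. Ctnnd2 (a catenin) had 35 and 51 and Dscam (an adhesion molecule) 21 and 40.

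The log2 ratios of neighbouring regions of a gene were set side by side. Over 158 pairs under 1 kb apart Pearson's r of the log2 ratios was 0.13 and Spearman's rho 0.04, and over 885 pairs at 1 to 10 kb they were -0.02 and -0.00. These describe pairs that share libraries, and at a median of 2 Th1 and 3 naive reads a region they do not show whether neighbours lean alike.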
